A study of Homo sapiens with 8 samples.

Results

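The genes described here are 38 genes of the cell division cycle, given by name in a list of S-phase and G2/M genes and found as rows of the deposited matrix, out of 60286 genes in all. All 38 were present, each on a single row. They were measured by single-cell RNA sequencing in 2-D and 3-D neural cultures of H1, a human embryonic stem cell line long in use. The 8 GEO samples are 8 sublibraries of a single pool of cells labelled by split-pool barcoding, so none of them is a treatment group. The comparisons below therefore rest on 46 culture tags carried in the cell names, and n is a number of tags throughout. A tag such as 2DCocuVehic1 gives the format (2D), the arrangement (2DCocu), the treatment (Vehic) and a number, with abbreviations that the labels do not define. Arrangement 2DCocu had 4 tags each of AcCoc, AcMor and Vehic, and 3DFusi had 4 AcCoc tags (numbers 1 to 4), 3 AcMor and 3 Vehic tags (numbers 1, 3 and 4). Arrangements 2DMono and 3DMono had 2 tags each of AcDop, AcMor and Vehic. Another 5 arrangements without a treatment were 2DProto2Fjo, 2DProto3Wu and 2DProto4Nic with 2 tags each, and 3DProto1For and 3DProto2Xia with 3 each. The labels list dopamine, cocaine, morphine and untreated cultures for every sample, and give no dose or exposure time. All cultures share the one cell line, and whether tags were separate cultures is not stated, so p-values measure only the spread between tags, which may be technical. Of the 46 tags, 43 were confined to 1 well of the first barcoding round.

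As background, dividing cells first license and copy their DNA and then separate the copies. D-type cyclins (CCND1, CCND2) with their kinases and then cyclin E (CCNE1, CCNE2) release E2F factors such as E2F1, which switch on genes for the replication helicase (MCM2 to MCM7), the sliding clamp PCNA and the enzymes that supply nucleotides (RRM1, RRM2, TYMS). After replication, CDK1 with cyclins A and B (CCNA2, CCNB1, CCNB2) drives mitosis with the Aurora and Polo kinases (AURKA, AURKB, PLK1), while spindle and kinetochore proteins move the chromosomes. In the developing brain, radial glia and other neural progenitors pass through this cycle, and neurons have left it for good.

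The promoters are shown first because CHR and E2F forms are held by different shares of the mitotic and the replication members. RefSeq windows on GRCh38.p14, from 250 bases before to 50 bases after the gene start, were at hand for 27 of the 38 members and for 27305 genes in all. The motifs searched on both strands were TTTGAA and TTCGAA (forms of the CHR element, known for binding the DREAM and MuvB complexes at G2/M genes), CCAAT (the NF-Y box), and TTTCCCGC, TTTGGCGC and TTTGCGCC (E2F forms). Matches of TTTGAA or TTCGAA may overlap CCAAT matches read on the other strand. The following 5 stretches lie before the gene starts, read 5′ to 3′ on the gene's strand, with motif matches on either strand in capitals. The first 3 belong to mitotic genes: MKI67, whose protein coats mitotic chromosomes (chr10:128126424-128126673, minus strand), TOP2A, the topoisomerase that untangles sister DNA (chr17:40417951-40418146, minus strand), and KIF11, a motor that pushes spindle poles apart (chr10:92592880-92593129, plus strand).
MKI67: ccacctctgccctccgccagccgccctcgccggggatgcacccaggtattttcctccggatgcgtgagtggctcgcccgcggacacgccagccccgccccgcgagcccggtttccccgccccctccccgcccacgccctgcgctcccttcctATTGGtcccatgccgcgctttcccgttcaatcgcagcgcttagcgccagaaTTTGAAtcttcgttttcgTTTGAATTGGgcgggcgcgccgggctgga
TOP2A: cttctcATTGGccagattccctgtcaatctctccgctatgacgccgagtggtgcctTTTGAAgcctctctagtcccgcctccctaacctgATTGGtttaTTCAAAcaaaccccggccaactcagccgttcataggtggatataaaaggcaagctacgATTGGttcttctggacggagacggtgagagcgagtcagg
KIF11: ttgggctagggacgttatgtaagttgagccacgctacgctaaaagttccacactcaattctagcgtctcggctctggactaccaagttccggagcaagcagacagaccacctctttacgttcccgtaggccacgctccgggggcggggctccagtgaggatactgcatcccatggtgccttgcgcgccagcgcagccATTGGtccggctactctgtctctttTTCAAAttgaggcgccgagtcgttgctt
The other two belong to replication genes: PCNA (chr20:5126627-5126872, minus strand) and the helicase subunit MCM6 (chr2:135876444-135876693, minus strand).
PCNA: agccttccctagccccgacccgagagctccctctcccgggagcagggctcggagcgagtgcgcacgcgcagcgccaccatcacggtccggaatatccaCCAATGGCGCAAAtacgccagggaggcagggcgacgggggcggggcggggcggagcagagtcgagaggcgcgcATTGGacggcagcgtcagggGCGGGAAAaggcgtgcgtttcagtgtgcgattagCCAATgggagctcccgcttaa
MCM6: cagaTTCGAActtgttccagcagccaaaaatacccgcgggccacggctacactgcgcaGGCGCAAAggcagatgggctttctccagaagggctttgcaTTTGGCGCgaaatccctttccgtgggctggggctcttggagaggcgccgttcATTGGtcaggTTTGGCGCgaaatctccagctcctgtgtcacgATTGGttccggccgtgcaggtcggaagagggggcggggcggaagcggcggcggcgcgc
In these 5 stretches TTTGAA stands in all 3 mitotic genes, E2F forms in both replication genes and CCAAT in all 5, and MCM6 also holds TTCGAA. Over the whole windows, a CHR form was found in 13 of the 17 G2/M and mitotic members with a window (76.5%), against 19.5% of all genes. The 4 without one were AURKB, CCNA2, CCNB1 and KIF20A. A CHR form together with CCAAT was found in 11 of the 17 (64.7%), against 9.02% of all genes, and CCAAT, with or without a CHR form, in 15 of the 17 (88.2%) and in 6 of 8 replication members (75%), against 39.7%. An E2F form was found in 5 of 8 replication members (62.5%), against 3.41% of all genes, and in 1 of the 17 G2/M and mitotic members, NUSAP1. CHR forms were found in 2 of the 8 replication members. A match describes the letters only, and says nothing about binding in these cultures.

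Cells with G2/M genes were a minority in every arrangement. A cell was counted as positive if at least 5 of the 23 G2/M and mitotic members had a count after each cell had been thinned to 5000 counts, which left out 1596 cells of lower depth (833 in 2-D and 763 in 3-D). Positive cells made up 15.4 ± 2.60% of cells in 2DMono (mean ± SD, n = 6) and 15.3 ± 1.10% in 3DMono (n = 6). They made up 9.01 ± 2.02% in 2DCocu (n = 12) and 11.5 ± 8.23% in 3DFusi (n = 10). Without thinning the 4 means were 21.5%, 19.8%, 11.6% and 16.7%. The groups of 2DMono (11.5% to 18.2%) and 3DMono (13.8% to 16.6%) overlapped. Among the arrangements without a treatment, 2DProto4Nic had the most positive cells at 18.9% and 19.4%, and 2DProto3Wu the fewest at 3.48% and 4.55%. The 3DFusi tags fell apart by their number. The tags numbered 1 and 2 stood at 19.2% (AcCoc 1), 19.9% (AcCoc 2), 26.2% (AcMor 1) and 17.1% (Vehic 1). Those numbered 3 and 4 stood at 5.24% (AcCoc 3), 3.47% (AcCoc 4), 8.33% (AcMor 3), 6.69% (AcMor 4), 4.55% (Vehic 3) and 4.48% (Vehic 4). These shares are scores over the members and are given with no test.

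**Figure D1:**
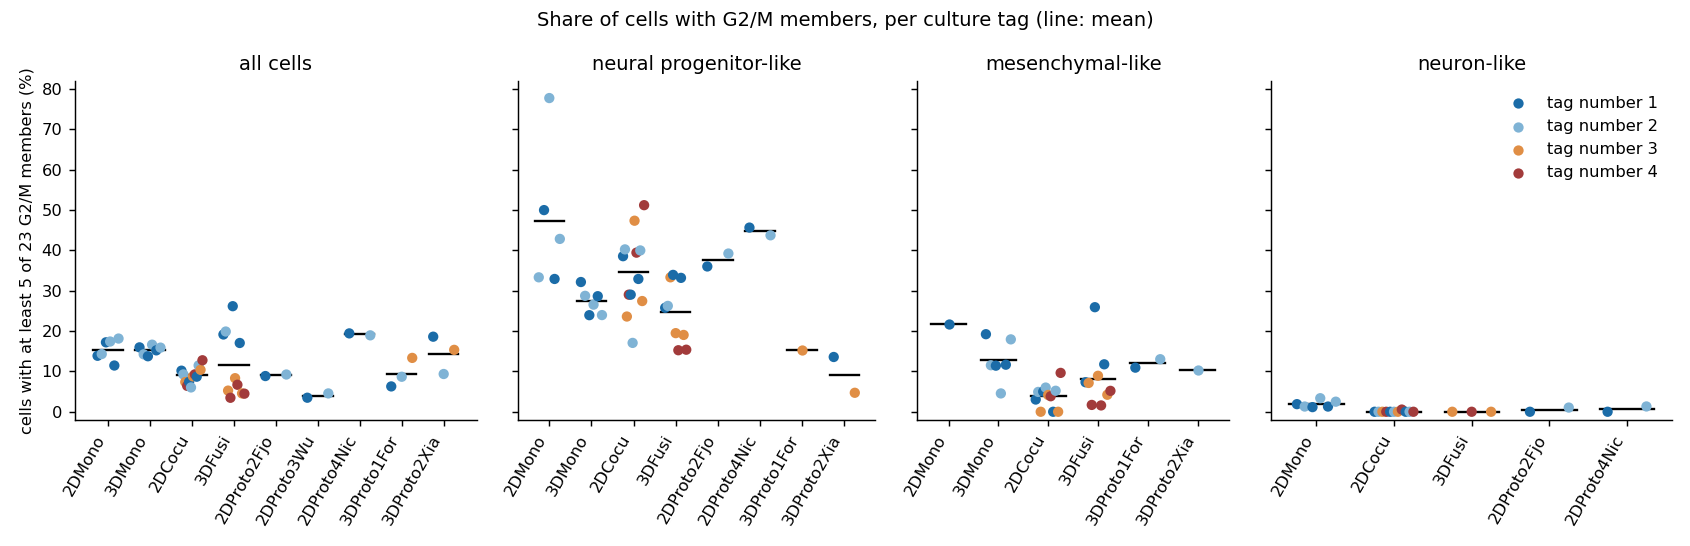
Share of cells (%, vertical axis) with at least 5 of the 23 G2/M and mitotic members, one point per culture tag, by arrangement (horizontal axis), in all cells and in 3 cell classes, with cells thinned to 5000 counts. Colours give the tag number and lines the mean: 3DFusi tags numbered 1 and 2 lie at 17.1% to 26.2% in all cells and those numbered 3 and 4 at 3.47% to 8.33%, neural progenitor-like cells are high and neuron-like cells are near 0.

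To see which cells carried the genes, cells were clustered after the listed cell cycle genes and 501 genes correlated with them had been removed, so that the members did not draw the 40 clusters. Neural progenitor-like cells (4626 cells, named from SOX2, SOX1, HES5, FABP7 and like markers) comprised clusters 1 and 39, in which at least 99.3% of cells were 3-D, and clusters 17, 31 and 36, in which at most 3.33% were. Positive cells were 47.4 ± 18.4% of neural progenitor-like cells in 2DMono (n = 5 tags with enough cells), 27.3 ± 3.18% in 3DMono (n = 6), 34.7 ± 9.92% in 2DCocu (n = 12) and 24.6 ± 7.67% in 3DFusi (n = 9). Neuron-like cells give the background: the share was 1.91% in 2DMono, 0.0497% in 2DCocu and 0 of 151 cells in 3DFusi (n = 3 tags with enough cells), which allows a share of up to 1.99% in these tags. Over all 3DFusi tags 3 neuron-like cells were positive, all in the tags left out for too few such cells. Mesenchymal-like cells (3181 cells, named from collagen and fibroblast markers) had 3.80 ± 2.96% in 2DCocu (n = 11), 8.19 ± 7.42% in 3DFusi (n = 9) and 12.7 ± 5.31% in 3DMono (n = 6). Intermediate progenitor-like cells had 22 ± 3.76% in 2DMono (n = 6), 29.5 ± 3.05% in 3DMono (n = 6) and 18.7 ± 10.3% in 2DCocu (n = 12), and 22.5% and 36.0% in the 2 tags of 3DFusi with enough such cells. Single genes followed the same order of classes after thinning. MKI67 was seen in 36.2% of neural progenitor-like, 10.8% of mesenchymal-like and 2.92% of neuron-like cells, and TOP2A in 30.4%, 9.85% and 2.37%. PCNA was seen in 8.04%, 4.23% and 1.41%. CCND1 had another order, with 6.61% of neural progenitor-like, 24.9% of mesenchymal-like and 1.64% of neuron-like cells. CCND2 was seen in 36.0%, 39.99% and 12.5%. Median depths before thinning were 12322, 13435 and 13576 counts in the 3 classes.

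Cluster by cluster, over cells of all tags, positive cells were most frequent in clusters 19 and 31, whose intervals overlapped. They were 45.1% (95% exact binomial interval 41.7 to 48.4) in cluster 19, an unnamed cluster mostly of 3DFusi and 3DMono led by DLX1 and DLX2, genes of the GABAergic lineage, and 44.8% (40.3 to 49.3) in cluster 31, all from 2DProto4Nic. They were 38% in cluster 17, 37.3% in cluster 36 and 27.2% (25.5 to 28.99) in cluster 1. Within tags, the share in cluster 19 was above that in cluster 1 in 7 of 7 tags of 3DFusi (46.0 ± 8.61% and 24.6 ± 7.30%, mean ± SD) and in 5 of 5 of 3DMono (42.3 ± 1.81% and 28.1 ± 3.09%) with at least 20 cells of both. Cluster 39, also neural progenitor-like, had 5.95%. The mesenchymal-like clusters 9, 30, 24, 38 and 37 had 11.3%, 5.91%, 4.95%, 4.23% and 1.57%. The lowest share was 0.330% (0.151 to 0.6249) in cluster 0. These intervals cover counting error only. CCND1 separated mesenchymal-like clusters 9, 30 and 24 from clusters 19 and 1, and CCND2 did not: CCND1 stood at 7.44 CPM (counts scaled to 1000000 per tag, class or cluster) in cluster 19, 16.5 CPM in cluster 1 and 66.0, 99.0 and 63.8 CPM in the 3 mesenchymal-like clusters. CCND2 stood at 229 CPM in cluster 19, 137 CPM in cluster 1 and 162, 99.5 and 119 CPM in the same 3 mesenchymal-like clusters. Many positive cells lay in unnamed clusters: 50.5% in 2DMono, 39.0% in 3DMono, 38.4% in 2DCocu and 53.3% in 3DFusi. Some of the clusters that held many positive cells were shared between arrangements and some were not. Cluster 1 held 40.5% of those in 3DMono and 25.9% in 3DFusi, where cluster 19 held 16.9% and 20.6%. Cluster 5 held 23.1% in 2DMono and 22.8% in 2DCocu, and cluster 17 held 17.9% and 27.6%. The unnamed cluster 11 held 30.2% in 2DMono. The unnamed cluster 2, with 99.5% of its cells from 2DCocu, held 22.4% there. Of the arrangements without a treatment, the unnamed cluster 16 held 63.3% in 3DProto2Xia and the unnamed cluster 27 held 82.8% in 2DProto3Wu. Cluster 31 held 57.1% in 2DProto4Nic.

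**Figure D2:**
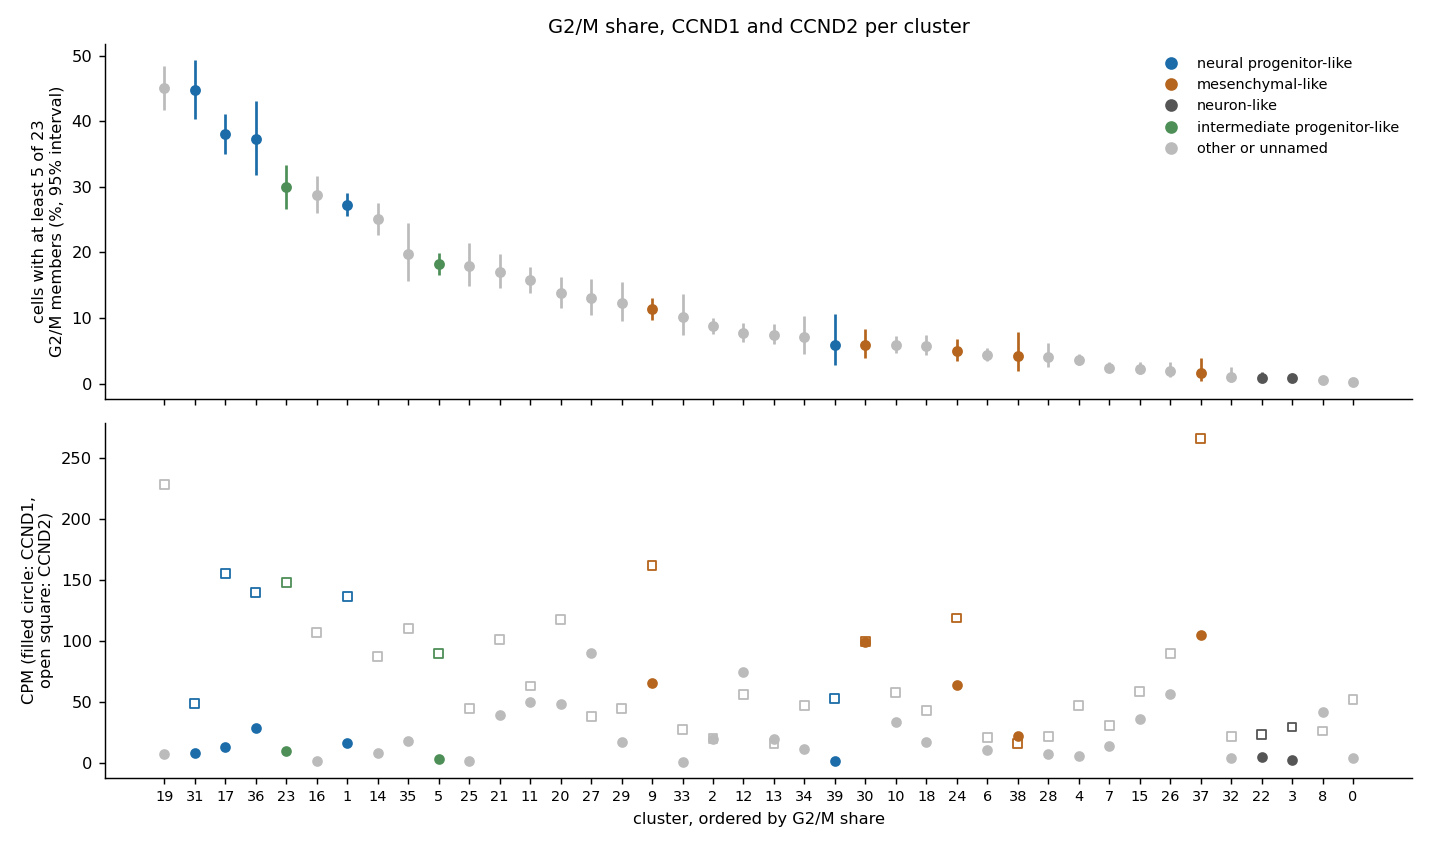
Clusters ordered by the share of cells with at least 5 of 23 G2/M members (upper panel, %, with 95% exact binomial intervals), and the levels of CCND1 (filled circles) and CCND2 (open squares) in CPM (lower panel). The share falls from 45.1% in cluster 19 to 0.330% in cluster 0, while CCND1 is high in mesenchymal-like clusters (66.0 CPM in cluster 9) and CCND2 stands at 229 CPM in cluster 19, 137 CPM in cluster 1 and 162 CPM in cluster 9.

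Whether growth in 3-D goes with other levels of the members than growth in 2-D was asked first in 3DMono and 2DMono, over all cells. In sums over all cells, more cycling cells and more RNA per cell cannot be told apart. Replication genes, cyclins and spindle genes rose in 3DMono: PCNA, MCM7, RRM2, CCNE2, CCNA2, AURKB, UBE2C, TPX2, KIF11 and NDC80, 10 of the 38. CCND1 fell. The level of PCNA was 9.63, 11.1 and 14.8 CPM (lowest, median and highest of 6 tags) in 3DMono and 4.06, 6.43 and 9.61 CPM in 2DMono. The groups did not overlap, and the log2 fold change was 0.64 ± 0.18 (SE; adjusted p = 0.0105, edgeR's quasi-likelihood test with Benjamini-Hochberg adjustment over all genes, as for every adjusted p here). AURKB, the kinase of the chromosomal passenger complex, rose by 0.95 ± 0.20 on the log2 scale (adjusted p = 0.00163) and CCNA2 by 0.89 ± 0.22 (0.00569). UBE2C, the ubiquitin-conjugating enzyme of the anaphase-promoting complex, rose by 0.74 ± 0.27 (0.0477), and KIF11 by 0.46 ± 0.11 (0.00368). Smaller rises were those of MCM7 (0.49), the kinetochore gene NDC80 (0.46), CCNE2 (0.45), RRM2 and TPX2, the spindle activator of AURKA (both 0.36). CCND1 lay at 8.69, 14.0 and 27.2 CPM in 3DMono and at 16.6, 20.2 and 30.4 CPM in 2DMono, overlapping, with a log2 fold change of -0.66 ± 0.18 (0.00965). In the Vehic tags it lay at 27.2 and 21.9 CPM in 3DMono and 30.4 and 20.1 CPM in 2DMono, overlapping, and with these alone it was not called (-0.30, adjusted p = 0.506). MKI67 lay at 140, 146 and 190 CPM against 103, 135 and 166 CPM, with a log2 fold change of 0.02 ± 0.10 (adjusted p = 0.90). TOP2A at 74.6, 108 and 159 CPM against 59.8, 86.1 and 102 CPM (log2 fold change 0.22) and CCND2 at 72.5 ± 22.6 against 54.7 ± 19.1 CPM (mean ± SD, n = 6; 0.25) were not called.

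By role, 3 of 10 replication members, 2 of 5 G1 and G1/S members, 3 of 11 G2/M kinases, cyclins and checkpoint genes and 3 of 12 spindle, kinetochore and chromosome members were called. The 11 of 38 members called (28.9%) stood beside 37.0% of all 22671 genes tested in this comparison (17.1% higher and 19.9% lower). Over both directions together, the count is no more than that of genes in general. By direction the members were uneven: 10 rose and 1, CCND1, fell. With the Vehic tags alone (2 against 2), 1 member was called higher, AURKB, beside 4.93% of all genes. AURKB, CCNA2, CCND1, KIF11, PCNA and TPX2 passed whichever of the 12 tags was left out, and UBE2C was lost in 8 of the 12 cases, RRM2 in 7 and MCM7 in 6. The log2 fold changes of the members had a median of 0.24, with 31 of 38 above 0, beside 0.03 for all genes. The size of this shift depended on the measure and its direction did not: the fitted values lay 0.17 (median, log2) below the ratio of mean CPM, on which the members' median was 0.40 with 35 above 0. The fit differs from that ratio in scaling and in its treatment term, and their parts were not separated. Among other cell cycle genes, 4 of 8 CDK inhibitors and pocket proteins tested rose, among them CDKN1C (1.13) and CDKN2C (0.90). Of 12 activators and G1 kinases, 3 fell, such as CCND3 (-1.06) and E2F3 (-0.67). Of 33 other replication genes, 6 rose (GINS2, 1.08) and 3 fell (UHRF1, -0.60), and of 39 other G2/M genes, 7 rose (CKS2, 1.304) and 3 fell (PSRC1, -0.78). Cell makeup differed too: neural progenitor-like cells were 20.7% to 23.4% of cells in 3DMono tags and 4.39% to 9.15% in 2DMono tags, and neuron-like cells 0.381% to 1.68% and 12.6% to 30.7%. The summed level of the 8 neural progenitor markers was 1568 to 2170 CPM in 3DMono and 1241 to 1591 CPM in 2DMono, that of the 8 mesenchymal markers 160 to 594 CPM and 580 to 1673 CPM, and that of the 7 astrocyte markers 36.0 to 105 CPM and 187 to 323 CPM. Their part in the differences was not tested.

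Within neural progenitor-like cells most called members lay on the other side of 0. MKI67 and the nucleotide and replication genes RRM2, RRM1 and MCM5 fell in 3DMono against 2DMono, as did E2F1, BUB1B and KIF18B, while CCND1 rose. These cells came almost wholly from cluster 1 in 3DMono (1559 of 1565 cells, 146 to 380 per tag) and from cluster 17 in 2DMono (268 of 273, 21 to 86 per tag). Format and cluster therefore cannot be told apart. At the lower clustering resolution of 0.4 the 2-D tags held almost no cells of this class, and the comparison was not run there. MKI67 lay at 245, 274 and 379 CPM (lowest, median and highest of 6 tags) in 3DMono and at 345, 504 and 674 CPM in 2DMono, with a log2 fold change of -0.73 ± 0.15 (adjusted p = 0.000856). RRM2, the regulated subunit of ribonucleotide reductase, lay at 142, 160 and 183 CPM against 211, 288 and 319 CPM. Its groups did not overlap, and it changed by -0.73 ± 0.13 (0.000127). KIF18B, a mitotic kinesin, fell from a mean of 183 to 90.5 CPM (-0.90 ± 0.16, 0.000111), MCM5 from 56.8 to 32.1 CPM (-0.76, 0.0109) and E2F1 from 30.2 to 17.8 CPM (-0.85, 0.014). RRM1 and the checkpoint kinase BUB1B both changed by -0.62 (0.0255 and 0.0276). CCND1 lay at 14.0, 16.3 and 22.4 CPM in 3DMono and at 0, 7.38 and 11.6 CPM in 2DMono with no overlap, and changed by 1.38 ± 0.37 (0.00785). With 21 to 86 such cells per 2DMono tag, its levels there rest on few counts. CCND1 may have passed the filter on low counts through the 3DMono tags, where it was higher. TOP2A (-0.42, adjusted p = 0.581), PCNA (-0.12, 0.912) and CCND2 (0.06, 0.943) were not called.

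The 8 of 37 members called (21.6%, with CCNE1 too low to test) stood beside 20.2% of 13899 genes (10.3% higher and 9.94% lower). Over both directions together, this is close to genes in general. By direction the members were uneven: all of the 8 but CCND1 were lower. The members' median was -0.34 with 30 of 37 below 0, all 12 spindle members among them, beside 0.04 for all genes. With the Vehic tags alone (2 against 2), 1 member was called lower, RRM2, beside 4.55% of all genes, and without 2DMono AcMor 1 the count was 5. CCND1, KIF18B, MKI67 and RRM2 passed whichever of the 12 tags was left out. For CCND1 the low counts in 2DMono remain a limit in each of these fits. Of the other replication genes, 18 of 32 fell, such as CDCA7 (-1.18) and UHRF1 (-1.14), and none rose. Of 12 activators and G1 kinases, 5 fell, such as E2F2 (-1.87) and E2F7 (-1.15), and CCND3 rose (1.47). The pocket protein gene RBL1 fell by 0.69, and 4 of 39 other G2/M genes fell, such as PSRC1 (-2.01) and ANLN (-0.76).

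**Figure D3:**
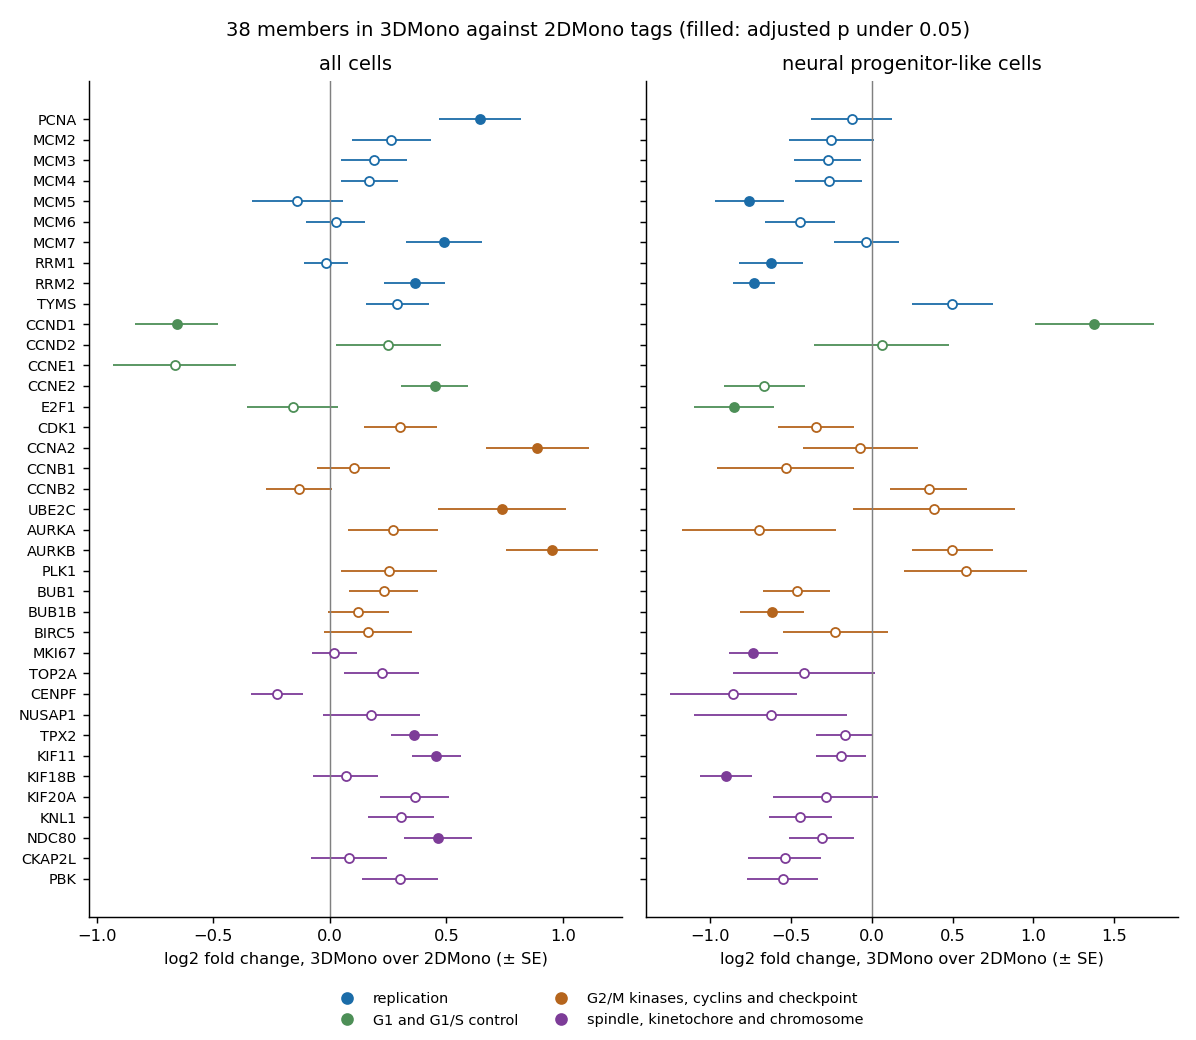
Log2 fold change (horizontal axis, ± SE) of the members in 3DMono over 2DMono tags, in all cells (left) and in neural progenitor-like cells (right), filled where the adjusted p was under 0.05. In all cells 10 filled points lie above 0 and 1, CCND1, below, while in neural progenitor-like cells 7 filled points lie below 0 and CCND1 lies above.

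The second pair of arrangements, 3DFusi and 2DCocu, gave more member calls over all cells, all of them higher in 3DFusi, and the calls depended on the tag number. PCNA lay at 6.51, 11.4 and 18.1 CPM (lowest, median and highest of 10 tags) in 3DFusi and at 2.79, 4.26 and 6.78 CPM (12 tags) in 2DCocu, overlapping in this range, and rose by 1.34 ± 0.18 on the log2 scale (adjusted p = 3.06e-06). CCND2 lay at 64.9, 96.2 and 149 CPM against 24.4, 44.4 and 65.5 CPM and rose by 1.10 ± 0.16 (7.24e-06). CCND1 lay at 10.97, 36.1 and 81.2 CPM against 11.1, 20.04 and 28.3 CPM and rose by 0.74 ± 0.26 (0.0213). Its highest levels, 81.2 CPM in AcCoc 3 and 64.7 CPM in AcCoc 4, were in tags with few G2/M-positive cells. TOP2A lay at 36.5, 65.8 and 296 CPM against 39.1, 54.2 and 80.9 CPM and rose by 0.81 ± 0.33 (0.0449), a call lost in 13 of 22 cases when 1 tag was left out. MKI67, at 53.8, 89.5 and 334 CPM against 63.3, 80.4 and 103 CPM, was not called (0.70 ± 0.29, adjusted p = 0.0518). Of the mitotic kinases and regulators, BIRC5, the survivin subunit of the passenger complex, rose by 0.93 ± 0.34 (0.0282), UBE2C by 0.86 ± 0.20 (0.00142), CCNB1 by 0.85 ± 0.26 (0.00861) and AURKB by 0.84 ± 0.27 (0.0137). Further rises were those of NUSAP1 (0.81), CCNA2 (0.68), MCM4 (0.53), CCNE2 (0.43), RRM1 (0.42) and MCM7 (0.30).

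In all, 14 of 38 members were called (36.8%), beside 48.3% of 23504 genes (25.2% higher and 23.1% lower). They were 4 of 10 replication, 3 of 5 G1 and G1/S, 5 of 11 G2/M kinase, cyclin and checkpoint and 2 of 12 spindle members. The median was 0.45 with 37 of 38 above 0, beside 0.03 for all genes. The count rested on the tags numbered 1: with these alone 33 members were called higher and 0 lower (median 1.35), beside 15.6% of all genes higher and 15.7% lower. With those numbered 3 alone 2 were higher and 2 lower (median -0.04), beside 6.70% and 6.75% of all genes, and with those numbered 4 alone 3 were higher and 11 lower (median -0.42), beside 13.2% and 14.9%. TOP2A fell by 0.74 in the tags numbered 4 (adjusted p = 0.00866). The tag number was also used as a block, although the numbers were taken to pair tags in 3DFusi only and not in 2DCocu. With this block 21 members were called higher, 13 of them among the 14, beside 20.6% of all genes called higher. CCND1 was lost there (0.36, adjusted p = 0.136), and MKI67 rose (0.52, 0.00308). The fold change of MKI67 was below 0 with the tags numbered 3 or 4 alone. The Vehic tags alone gave 3 (PCNA, CCND1 and CCND2), all higher, beside 14.1% of all genes. Leaving out 3DFusi AcMor 1 or Vehic 1 gave 9 calls, and leaving out AcCoc 4 gave 22. Cell makeup differed between the arrangements. The median share was 14.2% in 2DCocu and 1.44% in 3DFusi for neuron-like, 13.8% and 1.39% for intermediate progenitor-like, 5.03% and 13.8% for mesenchymal-like and 7.20% and 9.32% for neural progenitor-like cells. The 7 astrocyte markers summed to 208 to 303 CPM and 32.5 to 212 CPM. Within 3DFusi it moved with the number: neural progenitor-like cells were 14.4% to 28.8% of cells in 3DFusi tags numbered 1 and 2 and 1.67% to 9.55% in those numbered 3 and 4, and mesenchymal-like cells 2.14% to 4.62% and 12.3% to 47.7%. The 8 neural progenitor markers summed to 1441 to 2416 CPM and 576 to 948 CPM, and the 8 mesenchymal markers to 211 to 690 CPM and 1289 to 4503 CPM. Their part in the differences was not tested.

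**Figure D4:**
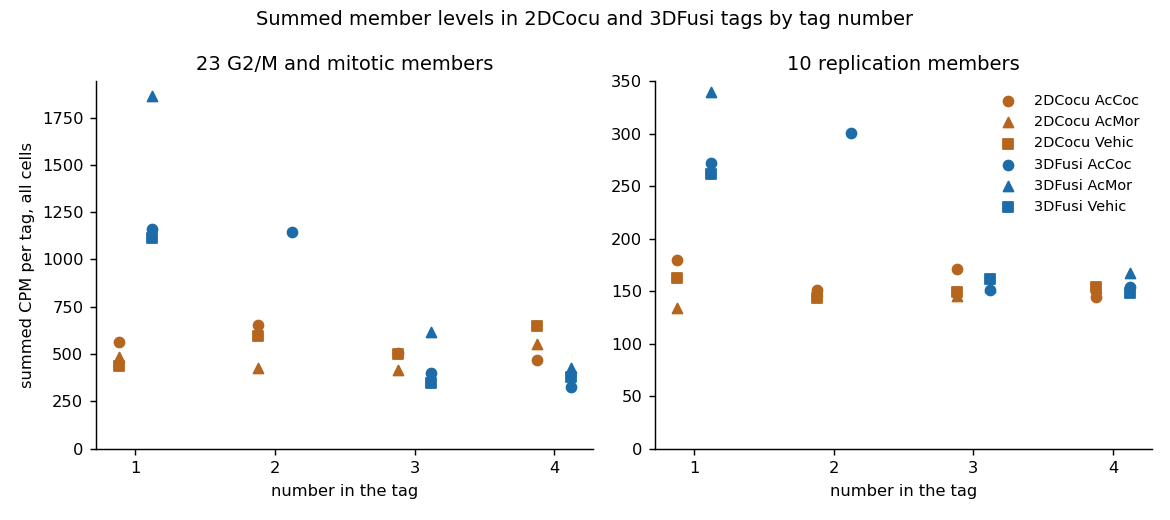
Summed level (CPM, vertical axis) of the 23 G2/M and mitotic members (left) and the 10 replication members (right) in all cells of each 2DCocu and 3DFusi tag, by the number in the tag (horizontal axis), with symbols for the treatment. The G2/M sum of 3DFusi runs from 325 CPM (AcCoc 4) to 1866 CPM (AcMor 1), with the tags numbered 1 and 2 above those numbered 3 and 4, and the 2DCocu tags show no such order.

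Other genes of the cycle are given beside the 48.3% of all genes called between 3DFusi and 2DCocu. Of 9 CDK inhibitors and pocket proteins tested, 5 rose, such as CDKN1C (2.03) and CDKN2D (1.93), and 2 fell, CDKN2A (-3.24) and RB1 (-0.21). Of 12 activators and G1 kinases, 3 rose (E2F8, 0.90) and 3 fell (CCND3, -1.05). Of 32 other replication genes, 7 rose (USP1, 0.85) and 2 fell (UHRF1, -0.47), and of 39 other G2/M genes, 11 rose, such as CKS2 (1.76) and HMGB2 (1.74), and 2 fell (PSRC1, -0.85).

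Within neural progenitor-like cells of 3DFusi (9 tags) and 2DCocu (12 tags), most members did not pass the test. PCNA rose, from a mean of 16.5 to 24.3 CPM (log2 fold change 0.58 ± 0.23, adjusted p = 0.046). E2F1 fell from 35.2 to 17.0 CPM (-0.94 ± 0.22, 0.000997), CCNE2 from 31.7 to 15.9 CPM (-0.77 ± 0.20, 0.00252) and MCM6 from 56.0 to 39.1 CPM (-0.44 ± 0.17, 0.0494). MKI67 (0.26, adjusted p = 0.498), TOP2A (0.16), CCND1 (0.07) and CCND2 (-0.38) were not called. The 4 of 37 members called (10.8%) stood beside 34.4% of 11720 genes (17.7% higher and 16.7% lower), and the members' median was -0.03 beside 0.00 for all genes. Here too the tag number mattered: with the tags numbered 1 alone 2 members were higher (beside 9.93% of all genes higher and 7.88% lower), with those numbered 3 alone 1 was higher and 2 lower (7.30% and 6.44%), and with those numbered 4 alone 14 were lower (median -0.90; 7.00% and 6.52%). With the tag number as a block, added after the data had been seen, 5 members fell, beside 15.8% of all genes, and none rose: PCNA was lost (0.20, adjusted p = 0.574), and BIRC5 and CCND2 joined E2F1, CCNE2 and MCM6. The numbers were not taken to pair the 2DCocu tags in this fit either. With the Vehic tags alone 1 member, PCNA, was called higher, beside 9.88% of all genes. Leaving out 1 tag lost the call of PCNA in 15 of 21 cases and that of MCM6 in 12, and left 2 calls without 3DFusi AcMor 1 or Vehic 3 or 2DCocu AcMor 3, Vehic 1 or Vehic 4. As in the other pair of arrangements, the cells came almost wholly from cluster 1 in 3-D (1023 of 1032 cells) and all from cluster 17 in 2-D (748 cells), and the comparison was not run at resolution 0.4. Of the activators and G1 kinases, 6 of 11 fell (E2F7, -1.24, and E2F3, -0.79), of other replication genes 1 of 31 rose (TIPIN, 1.00) and 6 fell (CDC6, -0.91), and of other G2/M genes 4 of 36 rose (CKS2, 1.19).

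Whether the 3-D effect differed between the pairs of arrangements was tested as a difference of effects, added after the data had been seen. Only the D cyclins passed in all cells, 2 of 38 members beside 15.6% of 24803 genes (9.34% higher and 6.28% lower). The 3-D minus 2-D effect of CCND1 was higher in 3DFusi and 2DCocu than in 3DMono and 2DMono by 1.36 ± 0.40 (adjusted p = 0.0167), and that of CCND2 by 0.85 ± 0.29 (0.0423). Both single effects of CCND1 had limits: the rise in 3DFusi was lost with the tag number as a block, and the fall in 3DMono was not called with Vehic tags alone. In neural progenitor-like cells 0 of 37 members passed, beside 6.49% of 13348 genes (3.68% higher and 2.81% lower). By the same quasi-likelihood test 5 members had an unadjusted p under 0.05, a looser threshold that cannot be set against that share. The lowest adjusted p was 0.142, for MKI67. CCND1 had a difference of -1.34 there (adjusted p = 0.202).

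Each treatment was set against Vehic tags of its own arrangement. None of the 38 members passed in any of the 8 treatment comparisons over all cells, by edgeR's quasi-likelihood test or by DESeq2. Leaving out 2DCocu Vehic 2 gave 1 call for AcCoc, PCNA, and testing without the filter on low counts gave 1 for AcMor in 3DMono, CCND1. In 2DCocu, MKI67 lay at 94.0, 103, 84.0 and 64.9 CPM in AcCoc tags 1 to 4, at 77.9, 67.8, 63.5 and 101 CPM in AcMor tags and at 80.5, 80.2, 63.3 and 81.3 CPM in Vehic tags, overlapping. The log2 fold change was 0.22 ± 0.16 for AcCoc (adjusted p = 0.465) and 0.09 ± 0.16 for AcMor (0.853). PCNA lay at 6.44, 6.78, 5.35 and 4.82 CPM in AcCoc and 4.18, 5.80, 2.97 and 2.79 CPM in Vehic tags, and its log2 fold change of 0.61 ± 0.21 had the lowest adjusted p of the members, 0.0911. CCND2 had 0.56 ± 0.20 (0.115) for AcCoc and 0.47 ± 0.21 (0.293) for AcMor. AURKA (-0.53 ± 0.19, adjusted p = 0.187) and NUSAP1 (-0.43 ± 0.18, 0.273) lay lower in AcMor than in Vehic tags with no overlap. So did NUSAP1 in AcCoc tags (-0.33 ± 0.18, 0.291). None of these was called. The share of all genes without overlap is not given here, so the lack of overlap is not read as a treatment difference. Members with an unadjusted p under 0.05 numbered 2 for AcCoc and 3 for AcMor. At an adjusted p under 0.05, 6.10% (3.60% higher and 2.50% lower) and 0.975% (0.685% higher and 0.290% lower) of all 21032 genes were called. The thresholds differ, so these member counts cannot be set against these shares. Of the other cell cycle lists, 1 of 12 activators and G1 kinases fell for AcCoc (CCND3, -0.83, adjusted p = 0.0168), 2 of 39 other G2/M genes rose (CBX5, 0.46, 0.0135, and G2E3, 0.39, 0.0431), and 0 of 32 other replication genes and 0 of 7 CDK inhibitors and pocket proteins were called. The 8 neuron markers summed to 1899 to 2359 CPM in AcCoc, 1779 to 2215 CPM in AcMor and 1076 to 1752 CPM in Vehic tags of 2DCocu. The median share of mitochondrial counts per cell was 2.48% to 3.38% in AcCoc, 2.68% to 3.48% in AcMor and 0.968% to 2.17% in Vehic tags. The part of either in these values was not tested. Positive cells were 8.31 ± 1.72% in AcCoc, 7.87 ± 1.46% in AcMor and 10.8 ± 1.73% in Vehic tags (n = 4 each). In neural progenitor-like cells of 2DCocu, 0 of 34 members were called for AcCoc or AcMor, beside 0.0661% and 0.0551% of 9071 genes called at an adjusted p under 0.05. At the looser threshold of an unadjusted p under 0.05 there were 3 and 0 members, which cannot be set against those shares.

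In 3DFusi the levels of the members followed the tag number. MKI67 lay at 214, 190, 77.0 and 57.5 CPM in AcCoc tags 1 to 4, at 334, 102 and 69.6 CPM in AcMor tags 1, 3 and 4 and at 210, 53.8 and 66.0 CPM in the same Vehic tags. AcMor was above Vehic at each of the 3 shared numbers for MKI67 and for the positive cells (26.2% and 17.1%, 8.33% and 4.55%, 6.69% and 4.48%). Tags numbered 3 and 4 correlated across numbers as well as within them, so pairing these by number is uncertain. On the CPM scale 18 of 38 members were higher in AcMor at all 3 numbers and 1 was lower at all 3, beside 6.79% and 18.6% of 20131 genes with a mean of at least 20 counts per tag. The 8 neural progenitor markers were higher in AcMor at all 3 numbers too. They summed to 2416 and 1774 CPM in AcMor and Vehic tags numbered 1, 948 and 808 CPM at number 3 and 939 and 833 CPM at number 4. Their part was not tested. The members' median log2 fold change was 0.25 for AcCoc, which alone has a tag numbered 2, and 0.01 with the tag number as a block. For AcMor it was 0.36, and 0.44 with the block. The median of all genes lay between -0.02 and 0.01 in these 4 fits. No member was called with or without the block, and 0 of 23679 genes were. Without the block no member had an unadjusted p under 0.05. With it 14 had one for AcMor, beside 1016 of all genes, and 1 for AcCoc: CDK1 had the lowest for AcMor, at a log2 fold change of 0.95 ± 0.20 (p = 0.000679, adjusted p = 0.9998), and MKI67 had 0.62 ± 0.16 (p = 0.00367). The median for AcMor moved with single tags, to -0.20 without AcMor 1 and 1.03 without Vehic 1, in fits without the block. In 2DMono and 3DMono, with 2 tags a treatment, 0 of 19416 and 0 of 22112 genes were called. The member counts that follow use a looser, unadjusted threshold and cannot be set against these. Of the members, 0 and 4 had an unadjusted p under 0.05 for AcDop and AcMor in 2DMono and 1 and 1 in 3DMono. In 3DMono both were CCND1, which lay at 27.2 and 21.9 CPM in Vehic, 12.9 and 8.69 CPM in AcMor and 14.0 and 14.1 CPM in AcDop tags. Its log2 fold change was -1.08 ± 0.28 for AcMor (adjusted p = 0.377) and -0.80 ± 0.28 for AcDop, so the difference did not pass over all genes. The 8 mesenchymal markers summed to 594 and 347 CPM in Vehic, 317 and 160 CPM in AcMor and 461 and 286 CPM in AcDop tags, and the choroid plexus markers to 885 and 688, 41.8 and 238, and 174 and 738 CPM. Their part was not tested. In 2DMono the 4 for AcMor were UBE2C (1.12), AURKB (0.93), AURKA (0.80) and KIF20A (0.75), all with adjusted p = 0.774. Some marker sums lay apart in this comparison too, which with 2 tags a side is weak. The 8 neural progenitor markers lay lower in AcMor, at 1339 and 1241 against 1372 and 1591 CPM in Vehic tags. Other marker sums went both ways. In AcMor and Vehic tags the sums were 31.0 and 37.8 against 17.1 and 16.8 CPM for intermediate progenitors and 2680 and 2397 against 1855 and 1601 CPM for neurons. For mesenchymal cells they were 580 and 931 against 1012 and 1673 CPM. The part of these sums was not tested. Over the 8 treatment comparisons of all cells the log2 fold changes ran from 0.04 to 0.62 for MKI67, -0.39 to 0.83 for TOP2A, -0.36 to 0.61 for PCNA, -1.08 to 0.08 for CCND1 and -0.16 to 0.59 for CCND2, none of them called.

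Mesenchymal-like and neural progenitor-like cells of the same tags differed in nearly every member. In 26 tags with at least 20 cells of both classes, replication and mitotic genes were lower in mesenchymal-like cells and CCND1 was higher. RRM2 had means of 23.8 CPM in mesenchymal-like and 151 CPM in neural progenitor-like cells, and fell in all 26 tags (log2 fold change -2.62 ± 0.22, adjusted p = 2.86e-11). MCM5 lay at 1.14, 6.88 and 11.3 CPM (lowest, median and highest of 26) against 17.7, 32.7 and 61.1 CPM with no overlap (-2.10 ± 0.16, 2e-12). E2F1 changed by -2.45 ± 0.20 (5.67e-12), and PCNA by -1.53 ± 0.18 (8.23e-09), lower in 26 of 26 tags. MKI67 lay at 2.22, 81.1 and 348 CPM against 144, 299 and 810 CPM. It was lower in 25 of 26 tags, with a log2 fold change of -1.75 ± 0.26 (9.81e-07). TOP2A changed by -1.59 ± 0.25 (3.87e-06), lower in 24 of 26 tags. The kinase gene PBK changed by -2.26 and PLK1 by -0.86, lower in 20 of 26 tags. CCND1 lay at 20.8, 64.9 and 113 CPM in mesenchymal-like cells and 3.55, 15.7 and 27.3 CPM in neural progenitor-like cells, and was higher in 26 of 26 tags (2.20 ± 0.15, 1.52e-13). CCND2 was not called, at means of 99.3 and 139 CPM (-0.21 ± 0.19, adjusted p = 0.338), nor was TYMS, the thymidylate synthase gene, at 15.4 and 19.7 CPM (-0.15 ± 0.15, 0.403).

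Of 36 members tested (UBE2C and CCNE1 were too low), 33 fell and 1 rose. They were 9 of 10 replication members, all 10 G2/M kinases, cyclins and checkpoint genes tested and all 12 spindle members among the falls, with a median of -1.55. Of all 11157 genes, 65.0% were called, 32.7% lower and 32.3% higher. The other lists went the same way: 30 of 31 other replication genes fell, such as CDCA7 and EXO1 (both -2.44), and 33 of 35 other G2/M genes, such as ASPM (-1.82). Of the CDK inhibitors and pocket proteins, CDKN1A (p21) rose by 1.59, while CDKN1B (p27) changed by -0.97 and RBL1 by -2.02. Of the activators and G1 kinases, CCND3 rose by 1.74 and the phosphatase gene CDC25B by 0.73, and MYBL2 changed by -2.04. With tags of a single arrangement, 23 members fell and 1 rose in 2DCocu (25 tested, 11 tags, median -2.39), beside 30.6% of all genes lower and 29.3% higher. The counts were 31 and 1 of 37 in 3DFusi (8 tags, -1.23), beside 22.7% and 25.3%, and 24 and 1 of 37 in 3DMono (6 tags, -0.98), beside 20.4% and 20.6%. CCND1 was the member that rose in each, by 2.75, 2.09 and 1.44. CCND2 had no fixed direction: -0.96 in 2DCocu (adjusted p = 1.8e-05), 0.50 in 3DFusi (0.234) and 0.83 with classes drawn per cell from markers (4.3e-05).

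**Figure D5:**
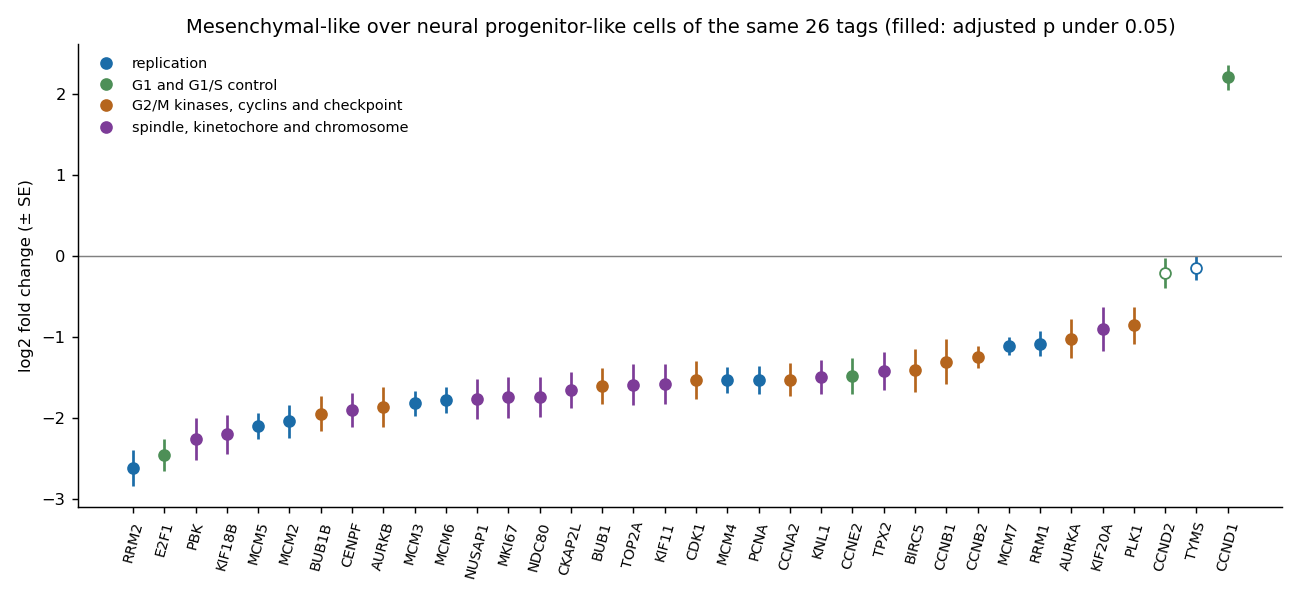
Log2 fold change (vertical axis, ± SE) of the 36 members tested in mesenchymal-like over neural progenitor-like cells of the same 26 tags, ordered by size, coloured by role and filled where the adjusted p was under 0.05. RRM2 lies lowest at -2.62, CCND1 alone lies above 0 at 2.20, and CCND2 and TYMS are open.

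The gap between the classes was smaller in 3DFusi than in 2DCocu. In a test of this difference, added after the data had been seen, 19 of 36 members passed (52.8%), all with a less negative or higher effect in 3DFusi, beside 34.2% of 11811 genes (17.1% higher and 17.1% lower). They included 10 of 12 spindle members and 4 of 10 replication members. CDK1, the mitotic kinase, changed by -2.92 in 2DCocu and -0.66 in 3DFusi, a difference of 2.28 ± 0.37 (adjusted p = 2.51e-05). The difference was 2.19 for KIF20A, the motor of cytokinesis, 1.92 for KIF11 and 1.39 ± 0.38 for MKI67 (0.00677), which changed by -2.80 in 2DCocu and -1.45 in 3DFusi. Some of these differences rest on low counts. In mesenchymal-like cells of 2DCocu, KIF20A lay at 0 to 5.44 CPM and AURKB at 0 to 4.4 CPM. Fewer members passed the filter on low counts in 2DCocu alone than entered this test, so some entered through the groups where they were higher. The levels in mesenchymal-like cells of 3DFusi moved with the tag number. MKI67 stood there at 178, 270 and 214 CPM in the tags numbered 1 (AcCoc, AcMor and Vehic), at 113, 114 and 50.8 CPM in those numbered 3 and at 38.6, 26.6 and 85.4 CPM in those numbered 4, against 2.22 to 76.9 CPM in the 11 2DCocu tags. The tags numbered 1 lay above every 2DCocu tag, and those numbered 4 overlapped them. With the tags numbered 1 alone 14 of 36 members passed in this test, beside 12.1% of all genes, with those numbered 3 alone 5 of 33, beside 11.9%, and with those numbered 4 alone (2 tags against 2) 1 of 37, beside 7.90%, all in the same direction. The difference for MKI67 was 1.99 (adjusted p = 0.000704), 1.81 (adjusted p = 0.304) and 0.53 (0.47) with these numbers, and that for CDK1 was 3.55 (0.00125), 1.81 (0.123) and 1.32 (0.386). The classes came from different clusters here too: mesenchymal-like cells were almost wholly from clusters 9, 24 and 37 in 3-D and clusters 30 and 38 in 2-D.

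Some members cannot be read alone. Of the 38, 17 overlap a gene on the other strand in GENCODE 29, among them TYMS (TYMSOS and ENOSF1), CCND1 (LTO1), CCND2 (CCND2-AS1), CCNA2 (EXOSC9), MCM7 (AP4M1) and RRM1 (RRM1-AS1). Whether the counting used strand is not stated, so reads of such pairs cannot be told apart. The deposited matrix held 43693 cells with a median of 12776 counts. Of these, 4894 cells had the same barcodes as a cell of another sublibrary, always within 1 tag.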

How the data were processed

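Single cells of H1-derived neural cultures were sequenced as 8 sublibraries of a single pool. The authors deposited expected counts per gene and cell (54.3% of the entries are whole, with no tolerance), the gene names and the cell names. Per the submitters' processing notes, Salmon 1.7.0, alevin, Seurat 4.1.1 and build hg38 were used. The sources used here do not give their roles, the annotation or the use of strand. The deposited cells had at least 1006 detected genes and at most 10.00% mitochondrial counts, and no cell was left out here. How multi-mapping reads were divided is not stated.

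The 38 members, the gene lists and the comparisons were chosen with earlier results of these data known. Expected counts were summed per tag, or per tag and class with at least 20 cells, rounded to whole numbers and tested with edgeR 4.0.16 (filterByExpr, TMM, robust glmQLFit, glmQLFTest) in R 4.3.3, with Benjamini-Hochberg adjustment over all genes tested and a threshold of 0.05. Format comparisons had treatment as a term, class comparisons had the tag as a block. The test was checked on simulated data. CPM are sums of expected counts scaled to 1000000 counts per tag or class.

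Clusters were drawn with the 132 listed cell cycle genes and 501 genes correlated above 0.2 with them left out (2000 variable genes, 30 principal components, 20 neighbours, Leiden resolution 0.8, seed 0, leidenalg 0.10.2, scikit-learn 1.9.0, Python 3.11.15). Of the cell type markers, 2 exceeded that correlation and were kept. A cluster was named where at least 3 markers and 40% of a list were in 10% of its cells and 2-fold higher than elsewhere, a rule set after the clusters had been seen. Of the cells, 2680 (6.13%) were called doublets and kept, with 52.4% of simulated doublets above the threshold. A count was an entry of at least 0.5. Free RNA was gauged by neuron-like cells.

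MKI67, TOP2A, PCNA, CCND1 and CCND2 are named with values in every 3-D against 2-D and class comparison, and as ranges over the treatment comparisons, and otherwise the members and list genes with the largest called changes of each role. Tag numbers were checked for pairing by the correlation of same-numbered tags' deviations from their group means. In 3DFusi it was 0.147 to 0.620 over 9 pairs, so the numbers were taken to pair these tags. Tags of different numbers there gave -0.592 to 0.400 (24 pairs). Tags numbered 3 and 4 correlated across numbers too: AcMor 4 with Vehic 3 had 0.400 and AcCoc 3 with Vehic 4 had 0.399, against 0.163 for AcCoc 3 with Vehic 3. Pairing within the tags numbered 3 and 4 is therefore uncertain. In 2DCocu it was -0.391 to 0.130 (12 pairs), in 2DMono -0.143 to 0.173 (6 pairs) and in 3DMono 0.0732 to 0.276 (6 pairs). With 2 tags a treatment in 2DMono and 3DMono, deviations mirror each other, so each value is repeated among those pairs. The numbers were not taken to pair tags in these arrangements. The values in 3DMono were all positive, as in 3DFusi, and no threshold for this choice is given. The alternatives were RLE scaling, no filter on low counts, DESeq2 1.42.0, the robust option off, Vehic tags alone, other classes, leaving out each tag, and the tag number as a block. Fits to tags of 1 number, differences of effects, and the block in neural progenitor-like cells were added after the data had been seen.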

Additional observations from a re-analysis of the deposited data

Results flagged for a closer look

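Single tags stood apart from their group in 4 of 75 groups of values examined, where chance gives about 1 in 20. MKI67 lay at 63.3 CPM in 2DCocu Vehic 3, below the other 3 Vehic tags at 80.2 to 81.3 CPM. TOP2A lay at 296 CPM in 3DFusi AcMor 1, with the next tag at 163 CPM. CCND2 lay at 89.7 CPM in 2DMono AcMor 2, with the next at 55.3 CPM. Among neural progenitor-like cells of 2DCocu AcMor tags, the share with at least 3 of the 10 replication members was 36.8% in AcMor 3, with the next at 26.8%.

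The 3-D minus 2-D effect over all cells differed between 3DFusi with 2DCocu and 3DMono with 2DMono for the D cyclins, CCND1 by 1.36 and CCND2 by 0.85 on the log2 scale, both by an interaction test in edgeR.

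The mesenchymal-like minus neural progenitor-like effect was higher in 3DFusi than in 2DCocu for some members by the same kind of test. Counts were low for some members in mesenchymal-like cells of 2DCocu. Fewer members passed the filter on low counts in 2DCocu alone than entered this test. Some therefore entered through the groups where they were higher. Genes in general also passed often, in both directions. With tags of the same number alone, where fewer tags entered, fewer members passed, and their count fell as that number rose. For the 19 members that passed, the difference was 2.28 for CDK1, 2.19 for KIF20A, 1.92 for KIF11, 1.91 for PBK, 1.84 for KIF18B, 1.79 for AURKB, 1.77 for NUSAP1, 1.63 for RRM2, 1.59 for CCNE2, 1.56 for TOP2A, 1.46 for CCND2, 1.44 for NDC80, 1.43 for AURKA, 1.39 for MKI67, 1.34 for CKAP2L, 1.19 for KNL1, 1.08 for RRM1, 0.83 for MCM3 and 0.66 for MCM7.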

How the results depend on the processing

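Of 102 counts of called members recomputed under another setting or with a subset of the tags, other than leaving out 1 tag, 93 stayed within 1.5 times the value reported and 9 moved. These totals ignore direction. The count for 3DFusi against 2DCocu with tags numbered 4 alone is among the 93, although most members called there were lower and all were higher in the main fit. Counts of 0 that stayed 0 in treatment comparisons are also among the 93. The 18 recomputed differences in the share of positive cells moved by less than the spread between tags. With Vehic tags alone the count was 1 in 3DMono against 2DMono and 3 in 3DFusi against 2DCocu (all cells), and 1 in each comparison of neural progenitor-like cells, where fewer tags entered. With tags numbered 1 or 3 alone it was 33 or 4 in 3DFusi against 2DCocu, and in neural progenitor-like cells 2 (numbered 1) and 14 (numbered 4). Without the filter on low counts 1 member was called for AcMor in 3DMono. Leaving out 1 tag gave 9 to 22 in 3DFusi against 2DCocu, 2 to 5 in its neural progenitor-like cells, 5 to 9 in those of 3DMono against 2DMono, and 0 to 1 for AcCoc in 2DCocu.

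With the tag number as a replicate block, 21 members were called in 3DFusi against 2DCocu and 11 in 3DMono against 2DMono, and 0 in each of the 8 treatment comparisons over all cells. The numbers were taken to pair tags in 3DFusi only. In neural progenitor-like cells, where the block was added after the data had been seen, 5 were called in 3DFusi against 2DCocu, 9 in 3DMono against 2DMono and 0 for AcCoc and AcMor in 2DCocu.

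Of the values of single members, 463 kept direction and call in these settings, 65 lost the call, 10 gained it and 24 reversed. When 1 tag was left out, 676 kept both, 89 lost the call, 9 gained it and 18 reversed. Signs reversed as follows, on the log2 scale, and the cause was not tested. In 3DFusi against 2DCocu, tags numbered 3 alone gave -0.0046 for MKI67, -0.29 for BIRC5, -0.022 for CCNB1 and -0.0031 for MCM7, and those numbered 4 alone gave -0.61 for MKI67, -0.74 for TOP2A, -0.16 for RRM1, -0.42 for BIRC5, -0.44 for AURKB and -0.60 for NUSAP1. In its neural progenitor-like cells, tags numbered 4 gave -0.78 for MKI67 and -1.21 for TOP2A, those numbered 1 gave -0.26 for CCND1 and 1.06 for CCND2, Vehic tags gave 0.26 for CCND2, and the replicate block gave -0.12 for TOP2A and -0.35 for CCND1. In 3DMono against 2DMono, Vehic tags gave -0.061 for MKI67, and in neural progenitor-like cells 0.33 for TOP2A and 0.11 for PCNA, where the replicate block gave -0.11 for CCND2. In mesenchymal-like against neural progenitor-like cells, CCND2 was 0.10 at resolution 0.4, 0.83 with classes per cell and 0.50 in 3DFusi. Leaving out 1 tag gave -0.023 to 0.088 for MKI67 in 3DMono against 2DMono, -0.17 to 0.072 for PCNA and -0.29 to 0.32 for CCND2 in its neural progenitor-like cells, -0.037 to 0.28 for TOP2A and -0.064 to 0.30 for CCND1 in those of 3DFusi against 2DCocu, and -0.15 to 0.19 for MKI67 under AcMor in 2DCocu.

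The 3-D against 2-D comparisons of neural progenitor-like cells were not run at resolution 0.4, where 2-D tags held 0 to 2 such cells. Depth limits low members: CCNE1 could not be tested in neural progenitor-like cells, nor UBE2C and CCNE1 between classes.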
